A study of Rattus norvegicus with 8 samples.

Results

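The insulin-like growth factor (IGF) system of rat extraocular muscle is described here from 10 genes, the ligands Igf1 and Igf2, the receptors Igf1r and Igf2r, and the binding proteins Igfbp2 to Igfbp7. All probe sets whose annotated gene symbol equals one of these names were taken, which gave 23 of the 31042 probe sets left after 57 manufacturer controls were set aside, and each of the 10 genes had at least 1. The question was how chronic thyroid hormone excess bears on gene expression in the muscles that move the eye. Extraocular muscles, dissected from adult Sprague-Dawley rats with a starting weight of 200 ± 40 g, gave total RNA for 1 Affymetrix array per sample. The hyperthyroid group of 4 rats was given T3 (triiodothyronine, the form of thyroid hormone that binds its nuclear receptors) at 25 µg per 100 g body weight, by injection into the peritoneum every other day for 6 weeks, with dissection 24 hours after the final dose. The control group of 4 rats was untreated, and a vehicle injection is not mentioned in the sources used here. Arrays carry the number in their title, so that the groups are hyperthyroid 1, 2, 3 and 5, and control 7, 8, 9 and 11.

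IGF1 and IGF2 are secreted growth factors that act through the tyrosine kinase receptor IGF1R, and in skeletal muscle IGF1 made by the tissue itself is known to promote fibre growth and satellite cell proliferation. IGF2R carries lysosomal enzymes and removes IGF2 from the cell surface without passing on a growth signal. The binding proteins IGFBP2 to IGFBP6 hold the ligands in serum and tissue and can block or prolong their action, while IGFBP7 binds them weakly and is found around blood vessels.

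Some arrays stood apart before any member was compared. Hyperthyroid 5 nearly lacked the extraocular myosin Myh13, with a signal of 4.17, against 5430 to 9340 on the other 7 arrays, so it goes against the tissue named in its label. Its mean correlation with the other arrays was 0.848, and that of hyperthyroid 2 was 0.855, against 0.877 to 0.896 for the other 6. Every member result is therefore given with and without the array labelled hyperthyroid 5. A measure of RNA length, the signal of the 3 prime Gapdh probe set over that of the 5 prime one, increases as transcripts shorten. This Gapdh ratio was 3.91 for hyperthyroid 1, 4.40 for 2, 2.18 for 3 and 1.44 for 5, against 1.97, 1.68, 1.77 and 1.67 for control 7, 8, 9 and 11. Its mean was 2.98 ± 1.40 for the hyperthyroid group and 1.77 ± 0.136 for the controls (SD, n = 4 each), with a two-sided exact permutation p of 0.229. Without hyperthyroid 5 the difference was 1.72, against 1.21 on all arrays, with an exact permutation p of 0.0571, the smallest that 3 against 4 arrays allow. The dissected tissue held more than muscle: Ptgds, a gene of the meninges, ran from 13.9 to 12430 in hyperthyroid and from 3098 to 14208 in control arrays.

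None of the members passed the test between groups. Values are array intensities on a linear scale, and limma compared their log2 values over the brighter 60% of all probe sets, with Benjamini-Hochberg adjusted p under 0.05 as the threshold. Of the 23 member probe sets, 19 passed this filter and were tested, and 4 were too dim. At the threshold, 0 of the 19 were called on all 8 arrays, where percent called over all 18625 probe sets was 0%, and 0 of 19 without hyperthyroid 5, where it was 0.156% (29 probe sets). At an unadjusted p under 0.05, limma counted 7 of the 19 on all arrays, 1 higher and 6 lower, beside 11.5% of all probe sets tested (6.25% higher and 5.3% lower). Without hyperthyroid 5 the count was 8 of 19, 2 higher and 6 lower, beside 15.2% overall (7.55% higher and 7.64% lower). The 6 lower probe sets on all arrays came from only 3 genes, Igf1, Igfbp2 and Igfbp5, so they are not 6 separate observations. A log2 difference, hyperthyroid minus control, below 0 was found for 14 of the 19 on all arrays, beside 47.5% of all probe sets, and for 13 without hyperthyroid 5, beside 45.8%. The median log2 difference was -0.41 over the 19 member probe sets and 0.025 over all tested, and without hyperthyroid 5 it was -0.37 and 0.043.

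**Figure D1:**
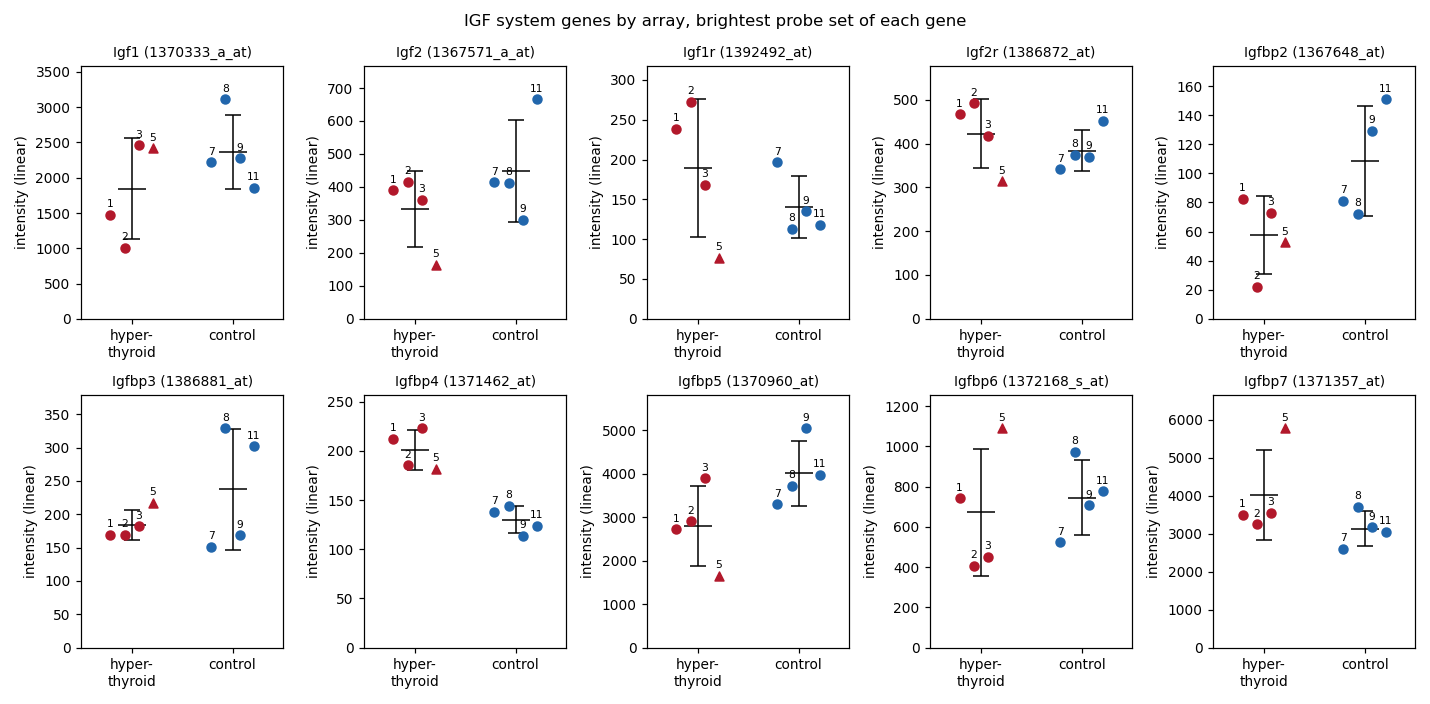
Linear array intensity (vertical axes, from 0) of the brightest probe set of each of the 10 genes, hyperthyroid arrays in red and control arrays in blue, numbered as in their titles. Bars give the mean ± SD of 4 arrays, and the triangle is hyperthyroid 5. Igfbp4 is the only panel in which the groups do not overlap, at 182 to 223 in hyperthyroid and 114 to 144 in control arrays.

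The ligand Igf1 had lower mean signals in hyperthyroid muscle on each of its 3 probe sets, with overlap between the groups on each. The brightest, 1370333_a_at, had signals of 1478, 1009, 2460.2 and 2416 on hyperthyroid 1, 2, 3 and 5, against 2217, 3113, 2274 and 1857 on control 7, 8, 9 and 11. Hyperthyroid 1 and 2 lay below every control here, and hyperthyroid 3 and 5 lay inside the control range. The second, 1388469_at, had 343.8, 399.8, 694.8 and 552.9 in hyperthyroid arrays, against 743.4, 1148, 633.9 and 793.9 in controls. Only hyperthyroid 3 reached the control range on this probe set. The third, 1382599_at, had 293, 226, 439.7 and 307 in hyperthyroid arrays, against 331, 718, 408 and 459 in controls, so that again hyperthyroid 3 alone was inside the range.

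The log2 differences of Igf1 in limma were -0.43 ± 0.27, -0.76 ± 0.24 and -0.58 ± 0.26 (SE) on the 3 probe sets, with adjusted p of 0.558, 0.318 and 0.420. Without hyperthyroid 5 they were -0.59 ± 0.26, -0.82 ± 0.25 and -0.58 ± 0.27 (adjusted p = 0.299, 0.165 and 0.342). When hyperthyroid 3 was left out as well, 1388469_at stood at -1.13 with an adjusted p of 0.0477 in limma, and across all alternatives of that 7-array comparison its adjusted p ran from 0.0477 to 0.993. Single arrays also moved Igf1 towards 0 in the 8-array comparison. Leaving out hyperthyroid 2 put 1370333_a_at at -0.17, leaving out control 8 put 1382599_at at -0.36, and both are over 1.5 times smaller. The Gapdh ratio was highest on hyperthyroid 1 and 2, the arrays lowest in Igf1. Once that ratio entered the model, the 3 differences were 0.022, -0.46 and -0.36 on all arrays, and 0.42, 0.053 and 0.35 without hyperthyroid 5. Both signs thus occurred, and the 3 remaining hyperthyroid arrays all had a ratio above every control. In a bulk sample, fewer cells of a type and less RNA per cell cannot be told apart.

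The fetal ligand Igf2, which is expressed from the paternal copy in rodents, had 1 probe set bright enough to test. On 1367571_a_at its signals were 390.1, 416, 359.9 and 165 on hyperthyroid 1, 2, 3 and 5, against 414, 412, 300.2 and 666 on control 7, 8, 9 and 11. Hyperthyroid 5 was lowest of all 8 arrays, and hyperthyroid 1, 2 and 3 sat inside the control range. The log2 difference was -0.46 ± 0.31 (SE; adjusted p = 0.584 in limma) and, without hyperthyroid 5, -0.15 ± 0.23 (adjusted p = 0.789). Leaving out control 11, the highest control, put it at -0.25. The other 3 Igf2 probe sets, all designed on 1 sequence record, had signals of at most 32.9 in hyperthyroid and 43.5 in control arrays and were not tested.

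The receptor Igf1r, which passes on the signal of both ligands, had higher signals in hyperthyroid 1, 2 and 3 than in most controls. On 1392492_at the signals were 239, 273, 168 and 76.5 on hyperthyroid 1, 2, 3 and 5, against 197, 113, 135 and 118 on control 7, 8, 9 and 11. Hyperthyroid 5 was the lowest of the 8 arrays, while hyperthyroid 1 and 2 were the highest. On 1368123_at they were 157, 97.9, 103 and 64.8, against 83.0, 95.1, 97.1 and 61.4. The log2 differences were 0.31 ± 0.37 and 0.28 ± 0.30 on all arrays (SE; adjusted p = 0.755 and 0.727 in limma). Without hyperthyroid 5 they were 0.70 ± 0.25 and 0.50 ± 0.28 (adjusted p = 0.228 and 0.434), so that array moved both by over 1.5 times. Other single arrays moved them the other way in the 8-array comparison. On 1392492_at the difference was 0.086 without hyperthyroid 2 and 0.15 without hyperthyroid 1. On 1368123_at it was 0.068 without hyperthyroid 1 and 0.14 without control 11.

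Once the Gapdh ratio entered the model as a covariate, the differences of Igf1r were -0.36 and -0.037 on all arrays, and -0.045 and 0.31 without hyperthyroid 5. On 1368123_at the 3 remaining hyperthyroid arrays lay above all 4 controls, the closest pair being 97.9 on hyperthyroid 2 and 97.1 on control 9, a pattern met with hyperthyroid higher by 8.27% of all probe sets without hyperthyroid 5. The receptor Igf2r had probe sets that pointed apart. On 1386872_at its signals were 314 to 492 in hyperthyroid and 341 to 452 in control arrays, a log2 difference of 0.12 ± 0.18 (SE; adjusted p = 0.803 in limma). On 1367636_at they were 138 to 411 and 268 to 411, a difference of -0.33 ± 0.29 (adjusted p = 0.674). Without hyperthyroid 5, which was lowest on both, the values were 0.26 ± 0.15 and -0.037 ± 0.21 (adjusted p = 0.440 and 0.952). Leaving out hyperthyroid 2 in place of hyperthyroid 5 gave 0.045 and -0.56.

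**Figure D2:**
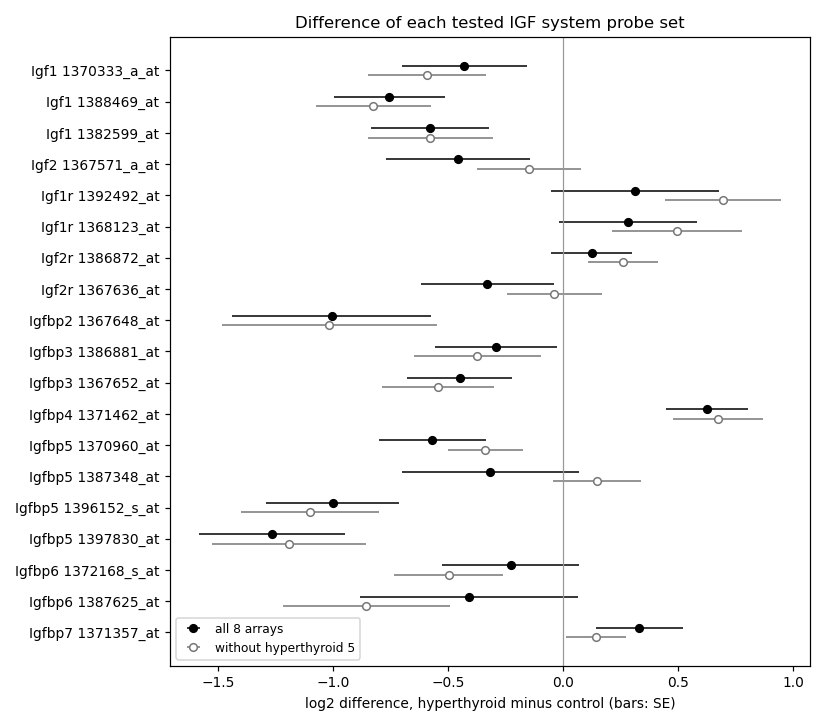
Log2 difference, hyperthyroid minus control (horizontal axis), of each of the 19 tested probe sets, with bars of 1 SE from limma. Filled points use all 8 arrays and open points leave out hyperthyroid 5. The values on all arrays run from -1.27 for Igfbp5 1397830_at to 0.63 for Igfbp4.

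Igfbp4, a binding protein that mostly inhibits IGF action and is cut by the protease PAPP-A, was the member whose signals were higher in every hyperthyroid array than in any control. On its single probe set, 1371462_at, the signals were 213, 185, 223 and 182 on hyperthyroid 1, 2, 3 and 5, against 138, 144, 114 and 124 on control 7, 8, 9 and 11. The groups did not overlap, and the lowest hyperthyroid array, number 5, was still above the highest control, number 8. The means were 201 ± 20.3 for the hyperthyroid group and 130 ± 13.7 for the controls (SD, n = 4 each). The log2 difference was 0.63 ± 0.18 (SE), a fold of 1.54, with an unadjusted p of 0.00462 and an adjusted p of 0.283 in limma, so it did not pass. Without hyperthyroid 5 it was 0.67 ± 0.20 (adjusted p = 0.158). Percent called for groups that do not overlap with hyperthyroid higher was 4.33% of all probe sets on all 8 arrays, and 1 of the 19 member probe sets met that.

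The Igfbp4 difference had the same sign under all 18 alternatives on all arrays, between 0.51 and 0.70, and 0.61 in the model that included the Gapdh ratio. Its adjusted p over these ran from 0.143 to 0.4997, and over the 17 alternatives without hyperthyroid 5 it ran between 0.110 and 0.986, with differences of 0.49 to 0.84. Endothelial markers, 7 of 8 fixed genes with a probe set, were compared beside it. Their summed signal was 1783 to 2623 in hyperthyroid and 1581 to 1963 in control arrays, which overlap. The 1783 was on hyperthyroid 5, inside the control range, while Igfbp4 on that array, at 182, was above every control. Without hyperthyroid 5 the hyperthyroid range was 2262 to 2623, which does not overlap with that of the controls. Of single probe sets, 8.27% had hyperthyroid higher without overlap in that comparison. All 7 tested endothelial genes had a log2 difference above 0 on all arrays, beside 51.2% of all genes. In limma 2 had an unadjusted p under 0.05, beside 12.2% of all genes, and 0 passed the adjusted threshold. Without hyperthyroid 5 all 7 were above 0, beside 51.9% of all genes. At an unadjusted p under 0.05 limma then counted 3, beside 16% of all genes, and 0 passed the adjusted threshold. No other cell type list had all its tested genes above 0 in either comparison. The part of endothelial cells in the Igfbp4 result was not tested.

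Because the groups did not overlap for Igfbp4 and for 1 probe set of Igfbp5, the upstream sequences of both genes are shown, as listed by RefSeq for the build GRCr8. These were 2 of the 19 member probe sets, beside 7.55% of all probe sets tested, and the other tested Igfbp5 probe sets overlapped. Each line gives the 250 bases before the annotated start, read 5′ to 3′ on the strand of the gene. Capitals mark the letters TATAAA, and a search on both strands was also made for AGGTCA, the half-site that thyroid hormone receptors are known to bind. The Igfbp4 window is chr10:84491221-84491470 on the plus strand, and the Igfbp5 window is chr9:81914188-81914437 on the minus strand.
Igfbp4: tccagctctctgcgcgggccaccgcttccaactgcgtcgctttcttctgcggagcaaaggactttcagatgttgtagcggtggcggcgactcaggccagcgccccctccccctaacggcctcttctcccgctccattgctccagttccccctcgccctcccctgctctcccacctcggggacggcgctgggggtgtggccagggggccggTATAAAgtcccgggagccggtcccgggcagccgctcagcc
Igfbp5: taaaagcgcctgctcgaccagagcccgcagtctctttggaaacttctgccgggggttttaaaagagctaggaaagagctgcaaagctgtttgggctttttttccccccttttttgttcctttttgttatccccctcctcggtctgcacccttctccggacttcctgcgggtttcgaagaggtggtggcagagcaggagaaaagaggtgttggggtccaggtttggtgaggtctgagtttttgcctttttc

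TATAAA stood 40 bases before the start in Igfbp4 and was not found in the Igfbp5 window, and it occurs in 12.9% of the 33469 windows of this length. AGGTCA was in neither window, nor in any of the 11 windows listed for the 10 genes, against 14.1% of all windows. These matches describe letters in a short window only. The G and C content was 68.8% for Igfbp4 and 51.6% for Igfbp5.

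Igfbp5, a binding protein known for its expression in differentiating muscle and in connective tissue, had 5 probe sets, of which 4 were tested, and these differed in size. The brightest, 1370960_at, had signals of 2722, 2898, 3889 and 1652 on hyperthyroid 1, 2, 3 and 5, against 3290, 3718, 5042 and 3971 on control 7, 8, 9 and 11. Only hyperthyroid 3 was inside the control range. A second bright one, 1387348_at, had 2928, 4345, 2837 and 918, against 4068, 2665, 3033 and 2420. Here hyperthyroid 5 was the lowest and hyperthyroid 2 the highest of the 8 arrays.

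The other probe sets of Igfbp5, 1396152_s_at and 1397830_at, come from a single sequence record and are not independent of each other. On 1396152_s_at the signals were 85.5, 114, 171 and 156 on hyperthyroid 1, 2, 3 and 5, against 199, 285, 186 and 394 on control 7, 8, 9 and 11. Every hyperthyroid array was below every control, a pattern shown by 3.23% of all probe sets on all 8 arrays and by 1 of the 19 tested here. On 1397830_at they were 61.1, 52.5, 135 and 62.0, against 186, 179, 124 and 218, so that hyperthyroid 3 alone was inside the control range.

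The log2 differences of the record-sharing pair were -1.003 ± 0.29 and -1.27 ± 0.32 (SE), with unadjusted p of 0.00518 and 0.00198 and adjusted p of 0.284 and 0.255 in limma. The bright pair, 1370960_at and 1387348_at, stood at -0.57 ± 0.23 and -0.32 ± 0.38 (adjusted p = 0.396 and 0.765). Without hyperthyroid 5 the bright pair stood at -0.34 ± 0.16 and 0.15 ± 0.19 (adjusted p = 0.355 and 0.752). The record-sharing pair stood at -1.10 ± 0.30 and -1.19 ± 0.33 without it (adjusted p = 0.143 and 0.149). When hyperthyroid 3 was left out as well, 1397830_at reached -1.61 with an adjusted p of 0.0393 in limma, and over all alternatives of that comparison the range was 0.0393 to 0.9998. In the model that included the Gapdh ratio, on 7 arrays, 1396152_s_at stood at -0.26 and 1397830_at at 0.0020. On all 8 arrays that model gave -0.67 and -1.07 (unadjusted p = 0.0460 and 0.0142, adjusted p = 0.366 and 0.241 in limma). The fifth probe set, 1387347_at, had signals of at most 39.3 in hyperthyroid and 25.1 in control arrays and was not tested.

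**Figure D3:**
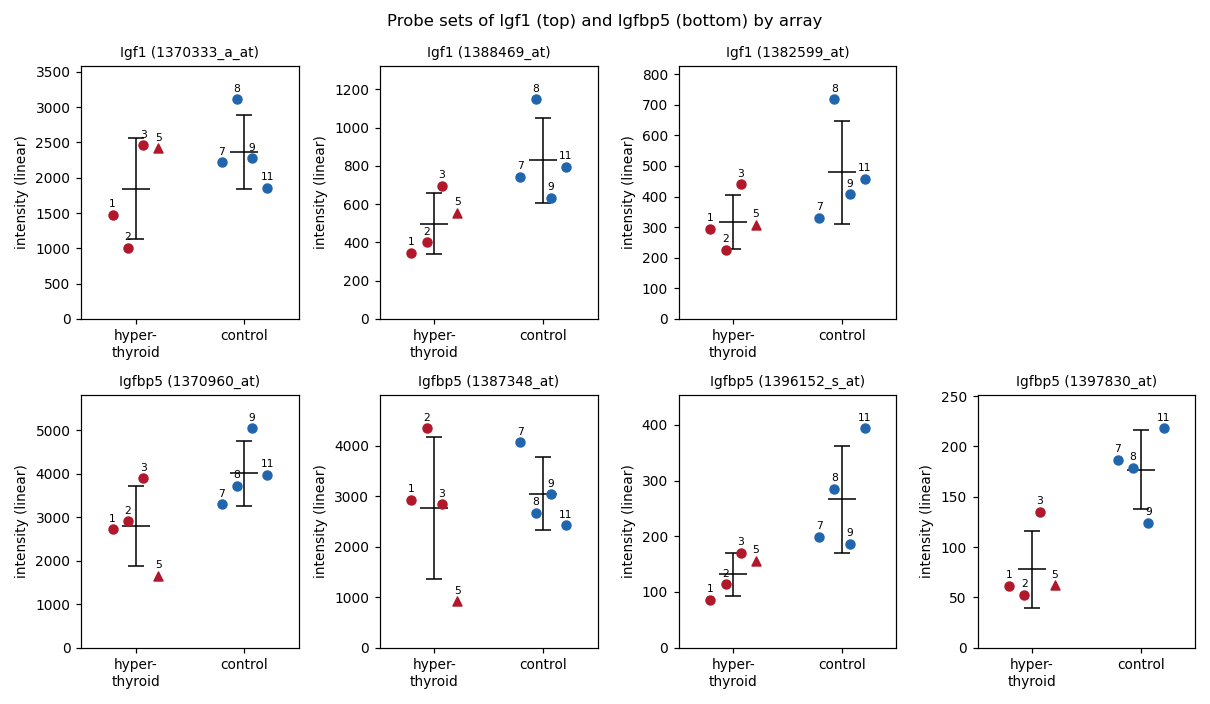
Linear array intensity (vertical axes, from 0) of the 3 probe sets of Igf1 and the 4 tested probe sets of Igfbp5, hyperthyroid arrays in red and control arrays in blue. Bars give the mean ± SD of 4 arrays, and the triangle is hyperthyroid 5. The groups are apart on Igfbp5 1396152_s_at, at 85.5 to 171 in hyperthyroid and 186 to 394 in control arrays, and overlap on 1387348_at.

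Igfbp2, a binding protein abundant in fetal tissue and in the brain and its coverings, had the lowest signal on hyperthyroid 2. On 1367648_at the signals were 82.6, 22.1, 72.9 and 52.7 on hyperthyroid 1, 2, 3 and 5, against 81.3, 72.0, 129 and 151 on control 7, 8, 9 and 11. Hyperthyroid 1 and 3 overlapped with control 7 and 8. The log2 difference was -1.01 ± 0.43 (SE; adjusted p = 0.415 in limma) and without hyperthyroid 5 it was -1.02 ± 0.47 (adjusted p = 0.330). With 32 added to each intensity before log2 it was -0.66 in both comparisons. Leaving out hyperthyroid 2 put it at -0.60 on the other 7 arrays, and at -0.41 when hyperthyroid 5 was left out too. The summed signal of 11 leptomeningeal markers was also lowest on hyperthyroid 2, at 1147. It was 3204 on hyperthyroid 5, 7998 on hyperthyroid 3 and 18781 on hyperthyroid 1. On control 7, 8, 9 and 11 the sum was 7360, 20791, 22763 and 21136. Among controls Igfbp2 was lowest on control 8, not on control 7, where the sum was lowest. On hyperthyroid 2 and 5 the largest part of this sum was Ogn, at 665 and 2843. All 8 of the markers that were tested had a log2 difference below 0 on all arrays, while 51.2% of all genes were above 0. All tested markers of myelin (6), astrocytes (3), epithelium (4) and skeletal muscle fibres (6) were below 0 too. The part of leptomeningeal cells in the Igfbp2 result was not tested.

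Igfbp3, the main carrier of IGFs in serum, had 2 probe sets with lower means in hyperthyroid arrays. On 1386881_at the signals were 169, 169, 182 and 217 on hyperthyroid 1, 2, 3 and 5, against 151, 329, 169 and 302 on control 7, 8, 9 and 11. The hyperthyroid arrays lay close together, while control 8 and 11 stood above control 7 and 9. On 1367652_at they were 112, 85.3, 107 and 131, against 137, 194, 116 and 150.1. The log2 differences were -0.29 ± 0.26 and -0.45 ± 0.23 (SE; adjusted p = 0.685 and 0.477 in limma), and without hyperthyroid 5 they were -0.37 ± 0.28 and -0.54 ± 0.24 (adjusted p = 0.550 and 0.316). On 1367652_at the 3 remaining hyperthyroid arrays were all below the controls, which 6.49% of all probe sets showed in that comparison. On 1386881_at single controls moved the 8-array value, to -0.11 without control 8, -0.15 without control 11 and -0.48 without control 7.

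Igfbp6, which prefers IGF2 over IGF1, was highest on hyperthyroid 5 and lowest on hyperthyroid 2 on both of its probe sets. On 1387625_at the signals were 574, 198, 353 and 1185 on hyperthyroid 1, 2, 3 and 5, against 329.9, 883, 769 and 659 on control 7, 8, 9 and 11. On 1372168_s_at they were 742, 406, 452 and 1089.9, against 523, 971, 708 and 775. The log2 differences were -0.41 ± 0.47 and -0.23 ± 0.30 (SE; adjusted p = 0.753 and 0.786 in limma). Without hyperthyroid 5 they were -0.86 ± 0.36 and -0.50 ± 0.24 (adjusted p = 0.290 and 0.344), both over 1.5 times larger. Leaving out hyperthyroid 2 in its place put them at 0.0041 and -0.023, so the size of both turns on which of these arrays is kept.

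Igfbp7, the low-affinity member of vessel walls, had signals of 3494, 3245, 3542 and 5773 on hyperthyroid 1, 2, 3 and 5, against 2595, 3702, 3167 and 3040.1 on control 7, 8, 9 and 11. Hyperthyroid 1, 2 and 3 were within the control range, and hyperthyroid 5 was far above it. The log2 difference was 0.33 ± 0.19 (SE; adjusted p = 0.516 in limma), and without hyperthyroid 5 it was 0.14 ± 0.13 (adjusted p = 0.626).

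The members deviated in both directions on each hyperthyroid array. The counts that follow are of probe sets, several of which share a gene. On hyperthyroid 2, 10 of the 19 tested probe sets (52.6%) were below the lowest control and 5 (26.3%) were above the highest, beside 26.5% and 30.2% of all probe sets tested. On hyperthyroid 5 the counts were 11 below (57.9%) and 4 above (21.1%), beside 26.4% and 27.3%. On hyperthyroid 1 they were 7 (36.8%) and 4 (21.1%), beside 23% and 28.6%, and on hyperthyroid 3 they were 4 (21.1%) and 2 (10.5%), beside 20% and 25.5%. The lowest of the 8 arrays was hyperthyroid 2 for 7 probe sets and hyperthyroid 5 for 6. The median log2 deviation from the control mean was -0.18, -0.45, -0.22 and -0.55 on hyperthyroid 1, 2, 3 and 5, against -0.12, 0.17, -0.038 and 0.0055 on control 7, 8, 9 and 11. Among the 6 genes with more than 1 tested probe set, 5 had all of them in 1 direction on all arrays, the exception being Igf2r. Without hyperthyroid 5 it was 4 of 6, with Igfbp5 added to the exceptions.

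**Figure D4:**
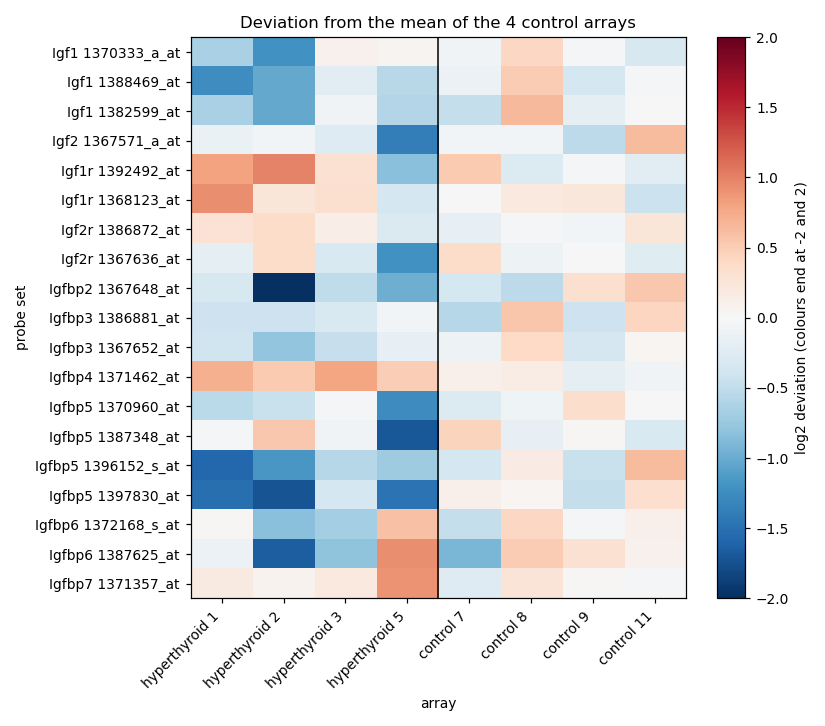
Log2 deviation of each of the 19 tested probe sets (rows) from the mean of the 4 control arrays, by array (columns), red above and blue below, with colours ending at -2 and 2. Igfbp4 is above the control mean on all 4 hyperthyroid arrays. The lowest value is -2.23, for Igfbp2 on hyperthyroid 2, and the highest is 0.99, for Igf1r 1392492_at on hyperthyroid 2.

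Summed connective tissue markers were low together with Igf1 and with the record-sharing Igfbp5 pair on hyperthyroid 1 and 2, but not on hyperthyroid 5. The summed signal of 9 fibroblast genes was 16135, 13917, 23579 and 47723 on hyperthyroid 1, 2, 3 and 5, against 21691 to 39663 in controls. Hyperthyroid 1 and 2 were below every control in this sum, as they were on all 3 Igf1 probe sets and on the Igfbp5 pair. Hyperthyroid 5 was above every control in the sum, yet below every control on Igf1 1388469_at and 1382599_at. It was also below every control on Igfbp5 1396152_s_at and 1397830_at, at 156 and 62.0. Hyperthyroid 3 was inside the control range of the sum and of 1397830_at, but below every control on 1396152_s_at, at 171. Collagen gene Col1a1 had 734 to 4655 in hyperthyroid and 1084 to 2962 in control arrays, highest on hyperthyroid 5. Lum and Pdgfra, 2 other genes of the list, were lowest of the 8 arrays on hyperthyroid 5, at 931 and 604. On all arrays, limma counted 1 of the 9 genes as lower at an unadjusted p under 0.05, beside 5.83% of all genes. The median log2 difference was -0.30. Without hyperthyroid 5, 7 of the 9 were lower at an unadjusted p under 0.05, beside 8.2% of all genes. The median log2 difference was then -0.80 and 0 passed the adjusted threshold in limma. Thy1 and Pdgfra were above 0 in that comparison, at 1.28 ± 1.03 and 0.064 ± 0.14 (SE). The part of these cells in the Igf1 and Igfbp5 values was not tested beyond this.

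Other genes of the pathway were taken from 6 lists with 99 genes, of which 85 had a probe set and 69 were tested on all arrays, each by its brightest probe set. On all 8 arrays 0 of the 69 passed, where percent called was 0% of 10446 genes. At an unadjusted p under 0.05 limma counted 6 of 69, 4 higher and 2 lower, beside 12.2% of all genes (6.34% higher and 5.83% lower). The groups did not overlap for 7 of the 69, 5 higher and 2 lower, beside 8.24% of all genes (4.49% higher and 3.75% lower). Without hyperthyroid 5, 1 of 68 passed, where percent called was 0.124%, and 15 of 68 had an unadjusted p under 0.05, 9 higher and 6 lower, beside 16% of all genes (7.82% higher and 8.2% lower). The groups then did not overlap for 13 of the 68, 10 higher and 3 lower, beside 15.5% of all genes (8.3% higher and 7.22% lower).

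The gene that passed without hyperthyroid 5 was Ctsd, for the lysosomal protease cathepsin D, in the list of binding protein proteases. Its signals were 490.2, 517, 496 and 608 on hyperthyroid 1, 2, 3 and 5, against 811, 1017, 1060.5 and 1208 on control 7, 8, 9 and 11, with no overlap. It fell by 1.02 ± 0.15 (log2 ± SE; adjusted p = 0.0260 in limma) without hyperthyroid 5, and on all arrays stood at -0.95 ± 0.15 (adjusted p = 0.151). The Ctsd call was lost when hyperthyroid 1 or 2 or control 8, 9 or 11 was also left out, when the Gapdh ratio entered the model, and with a variance model without a trend, each of which left 0 of the pathway genes called. In that list, Ctsd included, 7 of 9 tested genes were below 0 and 2 above on all arrays, beside 51.2% of all genes above 0. The median was -0.15, beside 0.012 over all genes. The serine protease Htra1, which cuts binding proteins, stood at 0.30 ± 0.18 and the gelatinase Mmp2 at -0.51 ± 0.34 (adjusted p = 0.531 and 0.581). Without hyperthyroid 5, Mmp2 was at -0.82 ± 0.27 and Adamts1 at 0.38 ± 0.18 (adjusted p = 0.194 and 0.343), while Adamts1 on all arrays was at -0.096 ± 0.39 (adjusted p = 0.939).

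Genes next to the receptor were more often above 0 than below, with 12 of 15 tested higher on all arrays, beside 51.2% of all genes. Their median was 0.065, beside 0.012 over all genes, and 0 passed. Ptpn1, a phosphatase that removes phosphate from the insulin and IGF1 receptors, had signals of 217, 173, 173 and 152 on hyperthyroid 1, 2, 3 and 5, against 117, 92.5, 69.5 and 77.0 on control 7, 8, 9 and 11. The groups did not overlap, and the log2 difference was 1.02 ± 0.23 on all arrays and 1.10 ± 0.25 without hyperthyroid 5 (SE; adjusted p = 0.218 and 0.0935 in limma). Sos2, an exchange factor for Ras, stood at 0.43 ± 0.14 and 0.50 ± 0.13 (adjusted p = 0.306 and 0.136), with 592 to 782 in hyperthyroid and 456 to 534 in control arrays. Grb14, an adaptor that inhibits the insulin receptor, stood at -0.74 ± 0.28 on all arrays (adjusted p = 0.353), with 215 on hyperthyroid 5, 527 to 559.9 on the other hyperthyroid arrays and 637 to 820.1 in controls. Without hyperthyroid 5 it was at -0.40 ± 0.13 (adjusted p = 0.196). The adaptor Grb2 also had groups without overlap, at 476 to 533 in hyperthyroid and 426 to 435 in control arrays, with a log2 difference of 0.23 ± 0.12 (adjusted p = 0.489). Pik3ca, the catalytic subunit of phosphoinositide 3-kinase, stood at 0.48 ± 0.15 without hyperthyroid 5 (adjusted p = 0.184).

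In the Akt and mTOR branch, 14 of 24 genes were above 0 on all arrays and 10 below, beside 51.2% of all genes above 0. The median was 0.22, beside 0.012 over all genes, and 0 passed. The kinase Mtor stood at 0.61 ± 0.21, its inhibitory partner Deptor at 0.37 ± 0.14 and the ribosomal protein Rps6 at 0.25 ± 0.13 (SE; adjusted p = 0.332, 0.351 and 0.473 in limma). Deptor had 1331 to 1659 in hyperthyroid and 984 to 1283 in control arrays, and Rps6 had 9457 to 12418 in hyperthyroid and 8200.2 to 9403 in control arrays, both without overlap. Without hyperthyroid 5, Pdpk1, which activates Akt, was at 0.41 ± 0.12, Deptor at 0.43 ± 0.13 and the mTOR scaffold Rptor at 0.66 ± 0.26 (adjusted p = 0.160, 0.166 and 0.258). On all arrays Pdpk1 was at 0.25 and Rptor at 0.36. In the MAP kinase branch 7 of 9 tested genes were above 0 on all arrays, beside 51.2% of all genes. Map2k1 stood at -0.29 ± 0.14, Nras at 0.32 ± 0.19 and Spry1 at 0.26 ± 0.16 (adjusted p = 0.469, 0.542 and 0.550). Without hyperthyroid 5, the phosphatase Dusp1 was at 0.40 ± 0.17, Elk1 at -0.43 ± 0.24 and Map2k1 at -0.27 ± 0.15 (adjusted p = 0.302, 0.413 and 0.415).

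The growth hormone axis, which drives Igf1 in liver, had 7 tested genes on all arrays, and 0 passed. Of these, 6 were above 0, beside 51.2% of all genes. Ghrh stood at 1.32 ± 0.73, Stat5b at 1.05 ± 0.63 and Cish at 1.08 ± 0.73 (SE; adjusted p = 0.502, 0.540 and 0.578 in limma), each with a control array below the filter level of 28.2 in signal. The receptor Ghr had 148, 130.1, 173 and 588 on hyperthyroid 1, 2, 3 and 5, against 214, 249, 211 and 167 on control 7, 8, 9 and 11. Without hyperthyroid 5, where it was highest, Ghr stood at -0.48 ± 0.21, Socs2 at -1.37 ± 0.83 and Stat5b at 1.01 ± 0.76 (adjusted p = 0.297, 0.460 and 0.553), while Ghr on all arrays was at 0.016 ± 0.40 (adjusted p = 0.991). Igfals, the serum partner of Igfbp3, and Igfbp1, both known from liver, had signals of at most 7.86 and 27.3 in hyperthyroid and 6.54 and 22.0 in control arrays and were not tested.

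Genes tied to the Igf2 locus or to Igf2 messenger RNA numbered 5 tested, and 0 passed. On all arrays 4 of them were below 0 and 1 above, beside 51.2% of all genes above 0. The insulator protein gene Ctcf stood at -0.25 ± 0.17, Plagl1 at -0.28 ± 0.29 and Plag1 at -0.19 ± 0.30 (SE; adjusted p = 0.578, 0.720 and 0.824 in limma). Without hyperthyroid 5, Igf2bp2 was at 0.66 ± 0.30, Ctcf at -0.27 ± 0.18 and H19 at -0.14 ± 0.24 (adjusted p = 0.327, 0.488 and 0.820). Hyperthyroid 5 moved several of these, since Igf2bp2 was at 0.12 ± 0.48 (adjusted p = 0.941) and H19 at -0.084 on all arrays, while Plagl1 and Plag1 were at -0.16 and -0.075 without it. H19, the noncoding neighbour of Igf2, had 1626 to 3249.7 in hyperthyroid and 1872 to 3328 in control arrays.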

How the data were processed

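Total RNA of 8 rats was measured on 1 Affymetrix rat expression array each. Each probe set has 1 deposited intensity per array, not log-transformed, made with GCOS per the submitters' processing notes, with further steps not given in the sources used here. From the values, the mean of each array after trimming 2% at each end was 150.05 to 150.06, so arrays were used without further normalization. Their medians were less even, at 58.3, 58.5, 57.6 and 49.2 on hyperthyroid 1, 2, 3 and 5. On control 7, 8, 9 and 11 they were 54.8, 51.7, 47.8 and 51.4. Hyperthyroid 1, 2 and 3 thus had medians above every control. Intensities below 1 (1663 of 248336) were set to 1 before log2. The brighter 60% of probe sets, 18625 whose mean over arrays was above 28.2, were fitted with limma 3.58.1 in R 4.3.3 (lmFit, eBayes with a trend, two-sided, Benjamini-Hochberg over all tested). The same fit was made without hyperthyroid 5. The procedure was also run on simulated data, drawn independently for each array and probe set, with no array that stands apart. That run does not show how well differences of the size seen here would be found. Levels of different genes were not compared, except that Gapdh probe sets gave a ratio and marker signals were summed per list. The number of arrays limits the precision. The limma p-values set each difference against the spread between arrays within a group, 1 array per rat. In the main fits this spread was drawn towards a trend with signal over all probe sets tested. That spread also holds what differs between arrays in tissue content and RNA length.

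The members and gene lists were chosen with earlier results of these data known. The genes named are all 10 members with every probe set and, from each pathway list, the 3 genes with the smallest unadjusted p in each comparison, with Ghr, H19, Igfals, Igfbp1 and the tested pathway genes without overlap also shown by signal (Grb2 was named after its values were seen). Gene names came from the platform annotation, and all 10 symbols matched RefSeq by gene ID. Alternatives were other filters, floors and offsets, median centring, quantile normalization, other variance models, array weights, the Gapdh ratio as a covariate, the mean over probe sets of a gene, and leaving out each array.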

Additional observations from a re-analysis of the deposited data

Results flagged for a closer look

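In 48 groups of 4 arrays, 3 held an array far from the others by Dixon's ratio, and chance gives about 1 in 20. Igfbp7 had a signal of 5773 on hyperthyroid 5, against 3245 to 3542 on the other hyperthyroid arrays. Igfbp5 1397830_at had 135 on hyperthyroid 3, against 52.5 to 62.0 on the other hyperthyroid arrays. Igf2 1388252_at, too dim to be tested, had 43.5 on control 11, against 1.62 to 5.02 on the other controls.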

How the results depend on the processing

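Of 665 member values under 18 alternatives on all arrays and 17 without hyperthyroid 5, 640 kept direction and side of the threshold, 2 passed it and 23 changed sign, 14 of these with the Gapdh ratio as a covariate. With that covariate on all arrays, Igf1 1370333_a_at was at 0.022, Igf1r 1392492_at at -0.36 and 1368123_at at -0.037, Igf2r 1386872_at at -0.081, and Igfbp6 1372168_s_at and 1387625_at at 0.13 and 0.29. On all arrays it also moved values away from 0, with Igf2r 1367636_at at -0.84, Igfbp5 1387348_at at -1.04, Igf2 1367571_a_at at -0.87 and Igfbp7 at 0.61 (adjusted p in limma 0.118, 0.100, 0.233 and 0.131). Without hyperthyroid 5 it put Igf1 1370333_a_at, 1388469_at and 1382599_at at 0.42, 0.053 and 0.35, Igf1r 1392492_at at -0.045, Igfbp2 at 0.012, and Igfbp5 1370960_at, 1387348_at and 1397830_at at 0.13, -0.38 and 0.0020. Median centring without hyperthyroid 5 put Igfbp7 at -0.036 and Igfbp5 1387348_at at -0.033. It lowered the other member values too, with Igf1 1388469_at at -1.004 and Igfbp4 at 0.49. Leaving out 1 array gave Igfbp5 1387348_at -0.60 to 0.15 and Igfbp6 1387625_at -0.86 to 0.0041 on all arrays. Without hyperthyroid 5 it gave Igfbp5 1387348_at -0.052 to 0.29, Igf2r 1367636_at -0.24 to 0.096 and Igf2 1367571_a_at -0.32 to 0.063.

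On all arrays, probe sets called in limma were 0, against 6 with array weights and 8 with the covariate. Pathway genes called were 1 with array weights, and members at unadjusted p were 4 without a trend and 4 with array weights. Without hyperthyroid 5, the 29 calls (10 higher) became 313 with median centring (13 higher), 36 with quantile normalization (21 higher), 71 without a filter, 76 with the upper 40%, 73 with an offset of 32, 70 with a floor of 16, 0 without a trend and 1 with the covariate. Pathway genes called were then 0 without a trend and 0 with the covariate, which left 1 member at unadjusted p. Leaving out 1 array gave 0 to 29 probe sets on all arrays and 0 to 142 without hyperthyroid 5, 0 to 2 members called without it, 4 to 8 and 4 to 10 members at unadjusted p, and 0 to 1 pathway genes in both. Causes were not tested. Median centring moved the median log2 difference of all tested probe sets to -0.094, and to -0.14 without hyperthyroid 5. No paired analysis was possible because the groups share no replicate number. Signals near the filter level limit the dim probe sets.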

Other observations

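Among the pathway genes too dim to be tested, 3 of 16 had signals that did not overlap between groups, all higher in hyperthyroid arrays, beside 4.03% of the 3771 genes too dim to be tested (2.76% higher). They were chosen after their values were seen. Irs1, a docking protein of the insulin and IGF1 receptors, had 18.8, 46.0, 35.6 and 36.0 on hyperthyroid 1, 2, 3 and 5, against 7.38, 5.89, 3.24 and 2.17 on control 7, 8, 9 and 11. Insrr, a receptor related to the insulin receptor, had 61.6, 54.5, 46.4 and 38.4, against 5.54, 5.97, 19.01 and 22.6. Pik3r3, a regulatory subunit of phosphoinositide 3-kinase, had 54.2, 92.3, 35.2 and 36.5, against 8.23, 8.39, 9.86 and 21.5. All control signals of these genes lay below the filter level of 28.2, so no fold is given.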
